A study of Caenorhabditis elegans with 2 samples.

Results

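The regions described here are candidate peaks whose highest point, the summit, lies in the 3' untranslated region (3' UTR) of a protein-coding gene on an autosome of the nematode Caenorhabditis elegans. They were chosen from the larger of 2 ranked lists of candidate peaks that combine both replicates of a chromatin immunoprecipitation sequencing (ChIP-seq) experiment. A summit was left out if it lay in a promoter (500 bp upstream to 100 bp inside a protein-coding start site), a 5' UTR or a coding exon, or within 500 bp of a tRNA, snoRNA, snRNA or SL RNA gene. The rule gave 395 of the 9477 candidates, and it used only the position of the summit, not the signal or the listing.

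The protein precipitated was the product of Y53F4B.3, which the annotation names pole-4, for a histone-fold accessory subunit of the replicative DNA polymerase epsilon. All worms were of strain RW12270, in which CRISPR editing had fused the endogenous gene to TY1, EGFP and 3xFLAG, and the antibody recognised GFP. Whole young adults of 64 h, grown from larvae that had been synchronised by starvation, formed the single group of 2 biological replicates. Whole worms mix all tissues and the germline, the sex of the worms is not given, and worms without the tag and the control library were not analysed here. The lists hold no read counts, so the depth behind each peak is unknown, and whether the protein itself was bound at a peak was not tested.

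A 3' UTR is the stretch of a messenger RNA between the stop codon and the point where the transcript is cut and polyadenylated, usually a short way past a hexamer such as AATAAA. In the compact genome of this worm the next gene often begins or ends close by. Genes that run towards each other can have ends that meet or overlap, and genes on the same strand can form operons, in which 1 promoter serves several genes and the transcript is divided by trans-splicing. Operon neighbours are known for a short gap between the end of the upstream gene and the start of the downstream gene. DNA polymerase epsilon acts on the leading strand at replication forks.

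The last 30 bases of a gene usually hold such a hexamer. They are printed here for 8 of the 14 host genes that carried a listed peak, since the listed peaks are those the results turn on. Each runs 5' to 3' along the gene, read from the RefSeq sequence of assembly ce11, with capitals marking the last AATAAA where there is one and otherwise the first hexamer that differs from AATAAA at a single base. Of these genes, cpg-1, skn-1, tlp-1, ubq-1 and mnk-1 have AATAAA itself, spk-1 and eef-1A.1 share GATAAA, and zer-1 has AGTAAA. Between the marked hexamer and the gene end lie 13 bases in cpg-1 and 23 bases in tlp-1, and the other 6 genes fall in between. The windows are III:4491363-4491392 (plus, cpg-1), III:6970026-6970055 (minus, eef-1A.1), III:9462978-9463007 (plus, spk-1), III:5943812-5943841 (plus, ubq-1) and III:881443-881472 (minus, zer-1). For tlp-1 and mnk-1 the window lies outside the peak. The skn-1, tlp-1 and mnk-1 windows are IV:5651039-5651068, IV:13701208-13701237 and II:10542421-10542450, all on the minus strand.
cpg-1: catgcaactaaAATAAAatgcttgtgcctg
eef-1A.1: attgaaaactGATAAAcaacgttcatctct
skn-1: atttcattcaAATAAAatgatgttggtgaa
spk-1: gttagcgaGATAAAaaataattgattcatg
tlp-1: tAATAAAagacgttggttctttgaaatttt
ubq-1: tctgAATAAAttcattttcgtgtactcaaa
mnk-1: ggagAATAAActgtgaataatatatttaaa
zer-1: gtctatggtAGTAAAcgatttgatgttttt

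The 395 candidates were few, ordinary in signal and listed about as often as other autosomal candidates, and their listing lay between that of promoter and coding exon candidates. A candidate counts as listed when it is in the authors' thresholded list, whose members all have an irreproducible discovery rate (IDR) of 0.01 or less. Of the 9477 candidates of the larger ranked list, 465 or 4.91% were listed, and 15 of the 395 3' UTR candidates were listed. That is 3.80%, with an exact Clopper-Pearson 95% interval of 2.14% to 6.19% that covers counting error only and treats peaks as independent, which neighbours are not. The interval holds both the background and the 3.55% of the 7444 other autosomal candidates away from short RNA genes. No 3' UTR candidate met the IDR limit without being listed, whereas 106 of the others did. By the IDR limit alone 370 of the others passed, 4.97%, which the interval also holds.

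Among the classes that the summit can fall in, promoters had the largest listed share, 125 of 1800 or 6.94% (interval 5.81% to 8.22%). Coding exons had 7 of 1781 listed, 0.393% (0.158% to 0.808%), so the intervals of coding exons and 3' UTRs did not overlap. Introns had 29 of 1900 listed, 1.53% (1.02% to 2.18%), and this interval overlapped that of the 3' UTRs only at its edge. Intergenic candidates had 98 of 1831 listed, 5.35% (4.37% to 6.48%). By the IDR limit alone the order of promoters and intergenic candidates turned, with 201 intergenic candidates passing, 11.0%, of which 103 were not listed, against 127 promoter candidates, 7.06%. Repeated sequence moved with the intergenic share. The repeat share of a candidate is the percentage of 24-base words in the 130 bp on each side of its summit with at least 5 copies in the genome, and it was 0 at 92.2% of the 3' UTR candidates against 62.0% of the intergenic ones. Among candidates with a repeat share of 0, 13 of 364 3' UTR candidates were listed, 3.57% (1.92% to 6.03%), against 19 of 1136 intergenic candidates, 1.67% (1.01% to 2.60%), and 96 of 1569 promoter candidates, 6.12% (4.98% to 7.42%). The 3' UTR share was close to its value over all members, and the intergenic share was lower. The 3' UTR candidates were also the poorest in GC, with a median of 34.1% against 37.2% for promoters, 38.3% for introns and 41.0% for coding exons. The part of GC content in the listing was not tested.

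**Figure D1:**
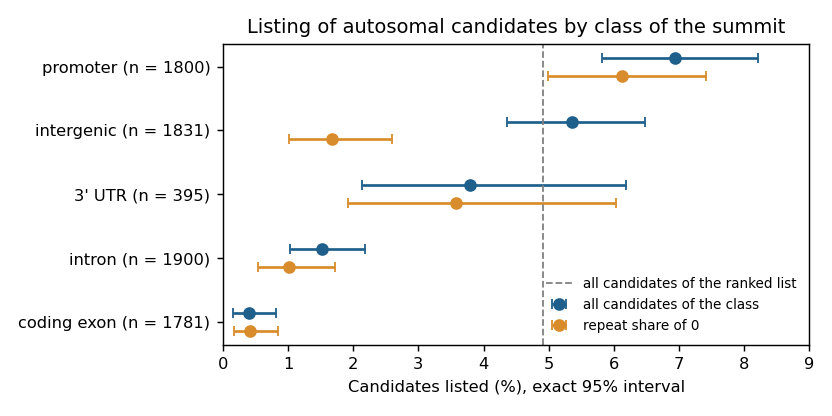
Percentage of autosomal candidates away from short RNA genes that were listed, by the class of the summit, with exact 95% intervals, for all candidates of a class (n on the axis) and for those with a repeat share of 0. The 3' UTR point at 3.80% stands between introns at 1.53% and intergenic candidates at 5.35%, and above intergenic candidates when only a repeat share of 0 is kept.

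The rule set aside neighbours of the same kind, which account for every summit in a 3' UTR. Of 561 candidates with a summit in any 3' UTR, 98 lay in a promoter (2 listed) and 32 in a 5' UTR or coding exon (1 listed). Of the remaining 431, 31 were on X (0 listed) and 5 were near a short RNA gene (0 listed). All 395 members were 260 bp wide with the summit at the centre, as were most candidates of the list, so the width carried no information. The peaks reached beyond the 3' UTR in many cases: 172 of the 395, or 43.5%, touched a coding exon and 19 touched a promoter. A protein-coding start site lay within 1000 bp of the summit for 109 members. At 388 summits no annotated non-coding RNA gene or pseudogene lay at the same position, and 20 summits lay in the 3' UTRs of 2 protein-coding genes. The members fell in 364 host genes, 2.52% of the 14438 autosomal protein-coding genes with an annotated 3' UTR, and 29 of the hosts had more than 1 member.

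The signal value, a score given by the authors' peak caller and comparable only within 1 list, had a median of 41.7 over the members (quartiles 34.3 and 50.1). Over the 7444 other autosomal candidates it was 42.2 (35.0 to 49.9), and the ratio of the medians was 0.988. The highest member reached 128, and the highest autosomal candidate, an intergenic one, 4825. The 15 listed members had a median signal of 86.0 and a range of 14.7 to 128, and the 380 unlisted ones a median of 41.4. Listing followed signal in most cases but not all, since 10 of the 15 members with the highest signal were listed. Listed promoter and intergenic candidates had higher medians, 103 and 121, and listed coding exon candidates a lower one, 71.9.

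The 15 listed peaks fell in the 3' UTRs of 14 genes of varied function, and 8 of them, including both peaks of zer-1, lay in genes whose end overlapped the end of a gene on the other strand. The strongest was at ekl-7 (WBGene00021465), a gene named for its interaction with the ksr-1 kinase, at I:2318113-2318372 with a signal of 128 and an IDR of 0.000156. The summit lay 62 bp inside the gene end, and the next gene was mcm-4, a subunit of the helicase that opens DNA for replication, whose end overlapped that of ekl-7. The second was at iars-2 (WBGene00002153), an isoleucyl-tRNA synthetase gene, at I:10184283-10184542 with a signal of 111 and an IDR of 0.000250, where the C-type lectin gene clec-87 overlapped the end. The third was at ekl-1 (WBGene00009052), which encodes a Tudor domain protein of a small RNA pathway, at I:7098209-7098468 with a signal of 105. This ekl-1 window had the highest repeat share of the 15, 59.7%, and iars-2 had 14.3%, while the other 13 windows had 0.

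Several listed peaks lay at genes that act throughout the body. At ubq-1 (WBGene00006727), the polyubiquitin gene, III:5943660-5943919 had a signal of 90.6, an IDR of 0.00276 and a summit 51 bp before the gene end, where F25B5.5 overlapped. At eef-1A.1 (WBGene00001168), which encodes the translation elongation factor that brings aminoacyl-tRNA to the ribosome, III:6969898-6970157 had a signal of 82.6 and an IDR of 0.00370. Its summit was 2 bp from the gene end, the closest of the 15. At spk-1 (WBGene00004980), a kinase of SR splicing factors, III:9462755-9463014 had a signal of 86.0, 122 bp before an end that overlapped B0464.6. K12C11.1 (WBGene00019673) had a peak of signal 86.5 at I:1341221-1341480 and ended 6 bp from smo-1, the SUMO gene, which runs towards it.

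Genes for regulators of transcription and chromatin were also hosts. At skn-1 (WBGene00004804), the stress-response and endoderm factor, IV:5651032-5651291 had a signal of 89.8 and an IDR of 0.00157, 123 bp before an end that overlapped csn-5, a subunit of the COP9 signalosome. At ceh-8 (WBGene00000433), a homeobox gene, I:8245519-8245778 had a signal of 93.5 and an IDR of 0.00694. The collagen gene col-63 was next on the same strand, 541 bp past the end of ceh-8. At hil-5 (WBGene00001856), a linker histone gene, I:5775410-5775669 had a signal of 74.4, and the Runx gene rnt-1 began 482 bp past the end on the same strand. This was the only listed peak of the 15 that reached a promoter as defined here. The summits at hil-5, ceh-8 and mnk-1 lay 553 bp, 686 bp and 803 bp upstream of the start site of the next gene. At tlp-1 (WBGene00006580), a zinc finger factor of tail development, IV:13701611-13701870 had a signal of 72.9 and lay 533 bp before the gene end, the farthest of the 15.

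The remaining 4 listed peaks stood near other listed peaks. At zer-1 (WBGene00020762), related to substrate adaptors of a cullin ubiquitin ligase, the peaks III:881457-881716 (signal 80.4) and III:881656-881915 (signal 27.0) overlapped each other with summits 199 bp apart. At cpg-1 (WBGene00000465), which encodes a chondroitin proteoglycan of the eggshell, III:4491237-4491496 had a signal of 14.7, at percentile 7.18 of the ranked list. It overlapped a listed coding exon peak of signal 52.4 whose summit was 203 bp away. At mnk-1 (WBGene00011304), a kinase downstream of MAP kinases, II:10542669-10542928 had a signal of 52.0, and a listed promoter peak of signal 103 stood 637 bp away. The mnk-1 summit also lay in an annotated non-coding RNA gene, the only such case among the 15. The 2 listed members with a signal under the members' median were thus cpg-1 and the weaker zer-1 peak, both of which overlapped a stronger listed peak. Without them 13 members were listed, 3.29%.

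**Figure D2:**
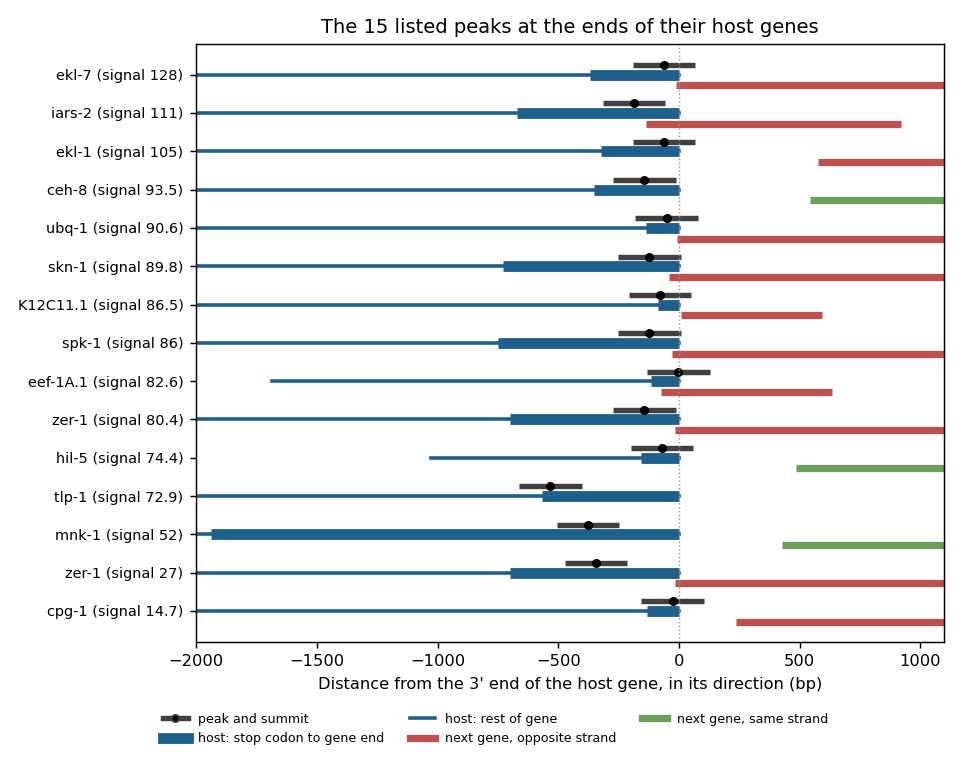
The 15 listed peaks drawn at the ends of their host genes, with distance in bp from the 3' end of the host in its own direction on the horizontal axis and one row per peak with its signal. In 8 rows the next gene, on the opposite strand, reaches back past 0 into the host, and in 4 rows the next gene lies farther on along the same strand, for tlp-1 beyond the range drawn.

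Around the IDR limit the last members inside were the tlp-1 peak with an IDR of 0.00976 and a signal of 72.9, hil-5 with 0.00935 and 74.4, and the weaker zer-1 peak with 0.00902 and 27.0. The first outside were asps-1 at 0.0116 (signal 83.3), rsp-5, an SR splicing factor gene, at 0.0126 (81.4), zig-11 at 0.0136 (69.5) and tir-1, the worm counterpart of SARM1, at 0.0171 (80.1). The 10 unlisted members with the highest signal ran from 71.4 to 88.6. They were Y82E9BR.3, asps-1, rsp-5, tir-1, the spindle assembly gene rsa-1, the germline gap junction gene inx-14, the Rab regulator gdi-1, the RNA-binding protein gene imph-1, and sqd-1 and lsm-7, both with roles in RNA processing. Of these 10, 5 had an end overlapped by a gene on the other strand, 3 faced a neighbour tail to tail, and 2 had the next gene on the same strand. The neighbour 2 bp from the end of tir-1 was the ribosomal protein gene rpl-3.

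Most of the listed members ranked high in each replicate's own list without being listed there. In replicate 1, 287 of 18181 candidates or 1.58% were listed, and 8 members overlapped a listed peak by at least 50% of the shorter. In replicate 2, 248 of 27101 candidates or 0.915% were listed, and 6 members overlapped one. Of the 15 listed members, 13 overlapped a candidate of replicate 1 and 15 one of replicate 2, with median signal percentiles of 97.3 and 97.1 within those lists. Only ekl-7 and iars-2 were listed in both replicates. The ekl-7 peak had a signal of 61.9 in replicate 1 and 62.2 in replicate 2, and the iars-2 peak 70.7 and 46.9.

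The ubq-1, skn-1 and mnk-1 peaks were listed in replicate 1 alone, and ekl-1 and cpg-1 in replicate 2 alone. The ekl-1 peak had a signal of 46.0 and an IDR of 0.424 in replicate 1, against 66.1 and 0.000266 in replicate 2. The cpg-1 peak and the weaker zer-1 peak matched no candidate of replicate 1. The other 8 peaks, 53.3% of the 15, were listed in neither, against 67 of the 264 other listed autosomal peaks away from short RNA genes, 25.4%. Of those 264, 80 or 30.3% were listed in both. The difference was not tested, and the 15 include 2 overlapping zer-1 peaks that match the same candidate of replicate 2.

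Of the 8 peaks listed in neither replicate, all but the weaker zer-1 peak were candidates in both, at percentiles from 93.0 up. The ceh-8 peak had a signal of 56.4 in replicate 1 and 36.8 in replicate 2, with an IDR of 0.0206 and 0.0601. The K12C11.1 peak had signals of 50.7 and 34.2, hil-5 49.4 and 28.1 and the stronger zer-1 peak 51.0 and 34.6, in the same order, and the spk-1 peak lay at percentiles 97.6 and 97.1. The eef-1A.1 peak ranked higher in replicate 2, at percentile 94.1 in replicate 1 (signal 39.4) and 98.1 in replicate 2 (40.9), and so did tlp-1, at 94.0 (39.3) and 97.2 (35.8). Signals of different replicates share no scale, so only the percentiles can be set side by side. In the conservative list, 437 of 12529 candidates or 3.49% were listed, and 11 of the 15 were listed there. The 4 that were not were hil-5, tlp-1, mnk-1 and cpg-1.

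**Figure D3:**
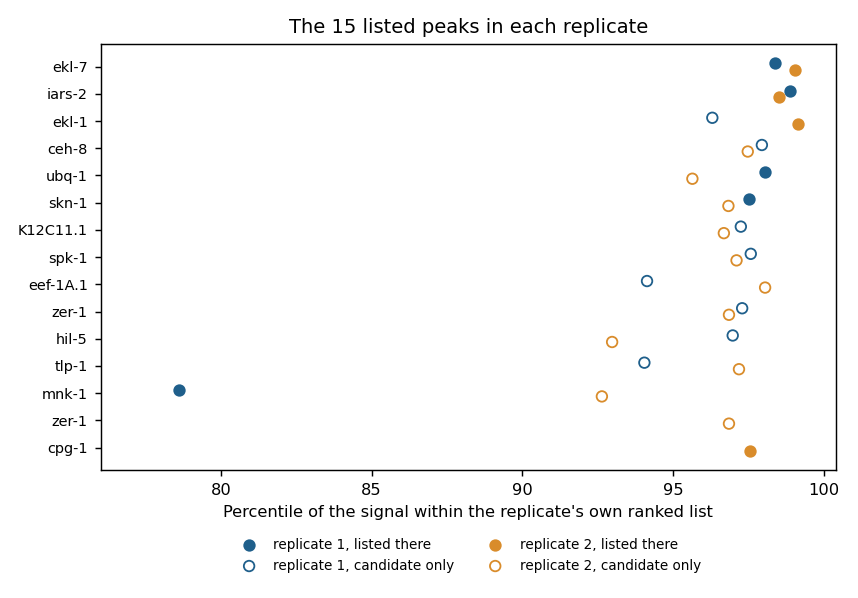
Percentile of the signal of each of the 15 listed peaks within the ranked list of replicate 1 and of replicate 2, filled where the peak was listed in that replicate and open where it was a candidate only. Apart from mnk-1 at percentile 78.6 in replicate 1, the points lie above percentile 92, and ekl-7 and iars-2 are filled in both replicates.

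The host genes of the 395 members more often met a neighbour on the opposite strand than the 3' UTR bases of the genome did. The next gene was the nearest protein-coding gene past the host's 3' end. It overlapped the host end from the opposite strand for 162 members, 41.0% (36.1% to 46.0%), and in 156 of these the ends of the genes overlapped, while in 6 the host's end lay inside the other gene. Of the 2157696 autosomal bases that meet the same rule, 23.8% belonged to such genes, as did 21.9% of the 14438 genes. A tail-to-tail neighbour, on the opposite strand and apart, followed 120 members, 30.4% (25.9% to 35.2%), against 29.4% of the bases. A tandem neighbour, on the same strand and apart, followed 112 members, 28.4% (24.0% to 33.1%), against 45.3% of the bases. Combined, 282 members or 71.4% (66.7% to 75.8%) had a neighbour on the opposite strand, against 53.2% of the bases, and so did 11 of the 15 listed peaks.

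The share with an opposite-strand neighbour was above that of the bases on each autosome. It was 71.3% against 55.7% on I, 65.2% against 50.9% on II, 73.0% against 53.3% on III, 71.1% against 53.9% on IV and 76.7% against 52.3% on V. On all 5 autosomes the exact 95% interval lay above the base share, with lower limits from 52.8% on II to 64.0% on V. The rule itself removed bases close upstream of a start site, and the base shares carry the same removal. Candidates of a gene share that gene's neighbour, and the level of expression of the hosts, which the lists do not give, was not taken into account. The annotated gene ends decide which pairs overlap.

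**Figure D4:**
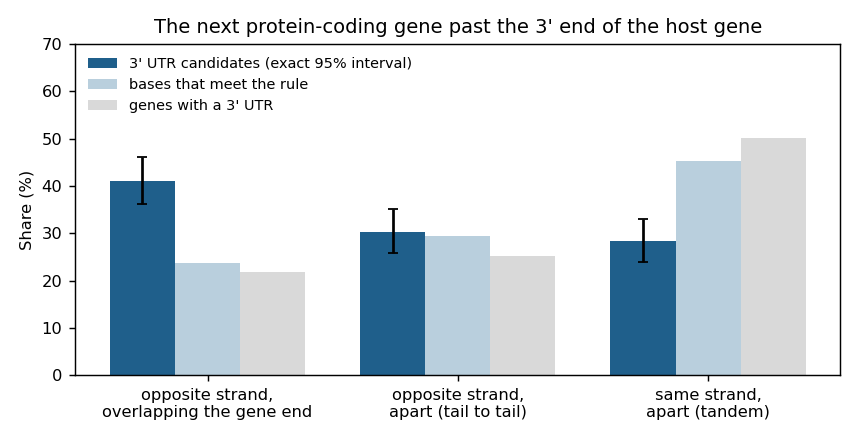
Percentage of the 395 candidates (with exact 95% interval), of the 2157696 bases that meet the same rule and of the 14438 autosomal genes with a 3' UTR, by the strand and spacing of the next gene. The candidates stand at 41.0% against 23.8% of bases for overlapping ends, level with the bases for tail-to-tail neighbours, and at 28.4% against 45.3% for tandem neighbours.

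The listed members were too few to order these arrangements by listing, and the median signals lay close together. Among members with an overlapping opposite-strand neighbour 8 of 162 were listed, 4.94% (2.16% to 9.50%). Among tail-to-tail members 3 of 120 were listed, 2.50% (0.519% to 7.13%), and among tandem members 4 of 112, 3.57% (0.982% to 8.89%). The 3 intervals overlapped. The median signals were 43.9, 41.4 and 40.4 in the same order, with quartiles of 35.5 to 53.4 in the first and 33.1 to 48.7 in the last. Where a tail-to-tail neighbour stood apart, its own 3' end lay a median of 284.5 bp past the host end (quartiles 37 and 765), counted per member. Counted per gene, the median was 502 bp over all genes with such a neighbour.

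**Figure D5:**
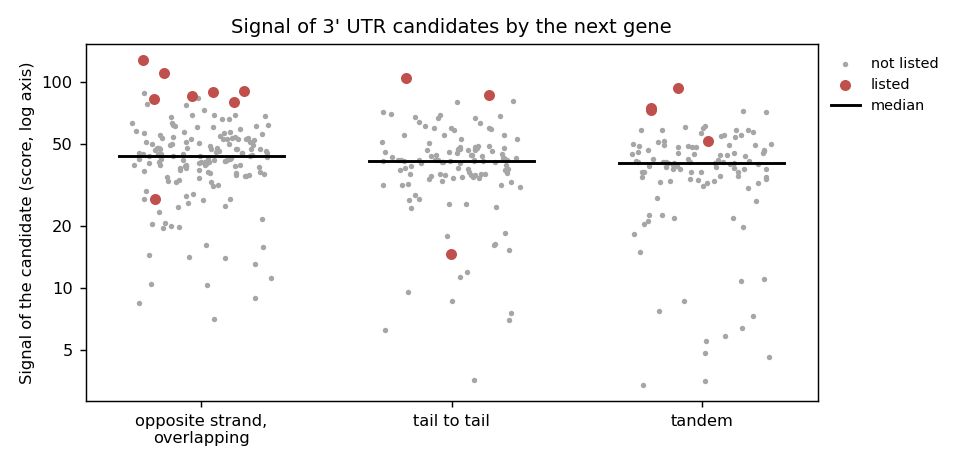
Signal of each member on a log axis, by the arrangement of the next gene, with listed members in red, the others in grey and the median as a line; the 1 member with a same-strand overlap is not drawn. The medians of 43.9, 41.4 and 40.4 lie close together, and the listed members stand mostly at the top of each column, apart from the weaker zer-1 peak at 27.0 and cpg-1 at 14.7.

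Operon-like spacing, here a same-strand neighbour that starts within 500 bp of the host's end, was found for 29 members, 7.34% (4.97% to 10.4%), against 8.87% of the bases that meet the rule. The files hold no operon annotation, so the spacing alone is described. The rule removes summits within 500 bp upstream of a start site, so the shorter the gap to a tandem neighbour, the farther from its gene end a member had to lie. The 29 had a median distance of 395 bp to the gene end, with the nearest at 42 bp in chn-1, and a median 3' UTR span of 878 bp. With summits in promoters kept, 97 of 477 had this spacing, 20.3% (16.8% to 24.2%), against 23.6% of bases and 20.4% of genes. Either way the interval held the share of the bases, so no difference was detectable at this spacing.

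Of these 29, 2 were listed, hil-5 and mnk-1, where 3.80% of all 395 members and 4.91% of all candidates were listed. A count of 2 is too small to place above or below these shares. Strong unlisted ones included a peak of signal 71.5 at sqd-1, a gene that ends 103 bp before lsm-8. Another, of signal 61.0, was at F26F12.3, a gene that ends 341 bp before F26F12.2. The peak at ptc-1, a Patched family gene, had 59.9, with rev-1 106 bp past the gene end. That at nhl-2, a TRIM-NHL gene, had 58.3, with F26F4.6 17 bp past the gene end. Within 200 bp the count was 8, 2.03% (0.878% to 3.95%), against 3.21% of bases. Within 1000 bp it was 51, 12.9% (9.77% to 16.6%), an interval below the 19.3% of bases. Tandem neighbours as a whole stood farther from the host ends. The median gap was 1195 bp over members against 712 bp over all genes with one, which the removal of promoters affects.

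Along the 3' UTR the summits were spread much like the bases that could hold them. The median distance to the gene end was 133 bp (interval 114 bp to 146 bp, quartiles 55 and 306) for the members and 146 bp (56 to 364) for the bases. The listed members had a median of 122 bp. By bins from the gene end, 2 of 85 members within 50 bp were listed, 5 of 77 from 50 bp to 100 bp, 5 of 96 from 100 bp to 200 bp, 2 of 62 from 200 bp to 400 bp and 1 of 75 beyond. Signal had a Pearson correlation of -0.05 and a Spearman correlation of -0.09 with the distance, across 395 peaks of the same libraries. Some members lay far from the gene end, up to 7825 bp in mig-6, the papilin gene. There the nearest end of a transcript with the summit in its 3' UTR was also far, at 7819 bp. Over all members, the median distance to the nearest such transcript end was 111 bp.

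The polyadenylation hexamer AATAAA was about as frequent at summits as along the 3' UTR bases that could hold them. On the strand of the host, 74 of 395 members had it within 50 bp of the summit, 18.7% (15.0% to 22.9%), against 22.0% of the bases that meet the rule. Among the listed members 3 of 15 had it, at cpg-1, eef-1A.1 and ubq-1. Counting any hexamer that differs from AATAAA at up to 1 base, the share was 66.6% against 70.1%. On either strand, AATAAA was found near 37.5% of the 3' UTR candidates, 21.3% of promoter candidates and 8.59% of coding exon candidates, which also differ in GC content. In the last 30 bases of the gene, as in the sequences printed for the listed hosts, 178 of the 364 host genes had AATAAA, 48.9%, against 53.4% of all genes with a 3' UTR, and 9 of the 14 listed hosts had it.

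By chromosome, I had 101 members with 6 listed, III had 89 with 6 listed, IV had 76 with 2 listed, II had 69 with 1 listed and V had 60 with 0 listed. Over all autosomal candidates away from short RNA genes, the listed share was 3.41% on I, 3.94% on III, 4.41% on IV, 3.18% on II and 2.89% on V. I held 25.6% of the members and 19.1% of the bases that meet the rule, and V held 15.2% and 22.4%. The exact 95% interval for 0 of 60 ends at 5.96%, which lies above the 5.94% listed on I and below the 6.74% on III. The lower limits of the intervals for I and III, 2.21% and 2.51%, lie well below that, so no order of the autosomes was detectable.

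Host genes were counted in 8 gene lists drawn up by symbol, with earlier results of these data known. A high share in a list is therefore not independent of those results, and the lengths of the 3' UTRs were not allowed for. Of these, the germline and oocyte list held the largest share of hosts, 10 of 54 or 18.5%, against 2.52% of all autosomal genes with a 3' UTR, and the 12 members there had a median signal of 42.7. The cpg-1 peak was the only one of the 12 to be listed. The strongest was at pos-1, a maternal RNA-binding protein gene, with a signal of 64.0. Next came glp-4, named for germline proliferation and included by its symbol, with 58.8, and rme-2, the yolk receptor gene, with 48.8. Others were at spn-4, puf-3, puf-6, cpg-3, mex-5 and cbd-1, with signals from 8.64 to 44.8. Several of these genes act in the oocyte and early embryo.

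Cell cycle and replication genes had 5 hosts of 76, 6.58%, none listed: rnr-2, the small subunit of ribonucleotide reductase (45.1), the retinoblastoma gene lin-35 (39.2), cdc-42 (38.3), the centromeric histone gene hcp-3 (24.8) and pcn-1, the replication clamp PCNA (24.7). The mcm-4 gene was not a host but was the neighbour of the strongest listed peak. Translation factors had 2 hosts of 36, with eef-1A.1 listed and eif-2alpha at 55.4. Ribosomal protein genes had 2 hosts of 77, rps-7 at 35.9 and rpl-11.1 at 15.4, a share of 2.60% near that of all genes. Nuclear hormone receptor genes had 5 hosts of 224, and the cuticle collagen list, drawn by symbol alone, had 1 of 148, col-99. The histone list, limited to symbols that begin with his-, had 0 of 6. It does not cover the hosts hil-5 and hcp-3, which are described here as histone genes. No major sperm protein gene had an annotated 3' UTR. Genes of a list can lie side by side, and no list was tested.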

How the data were processed

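ChIP-seq of 2 biological replicates gave 8 peak lists on assembly ce11, per the file headers; no source used here names the aligner or peak caller. The signal is a score that the authors' caller gave per peak, with no scale shared between lists. The deposited score column is 125 times the negative log2 of the IDR, capped at 1000, and the ranked lists deposited by the authors give the -log10 of the IDR. Summits are deposited as an offset, in bp, counted from each peak's start. Each thresholded list draws on 1 further input file of unstated nature. In each ranked list 8 unnamed columns of sub-list values were not used.

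Summits were placed in classes with Ensembl release 115, with Python 3.11.15, NumPy 2.4.6, pandas 2.3.3, SciPy 1.17.1 and matplotlib 3.10.9. The next gene was the protein-coding gene nearest past the host's 3' end. Shares have exact Clopper-Pearson 95% intervals and medians exact order-statistic intervals, for counting error only. No test was run, since there is 1 group and peaks are not replicates. The next-gene step was tested on 300 simulated gene pairs and recovered 300. All simulated hosts were on the plus strand, and same-strand overlaps were not simulated, so those cases were not tested. Members and gene lists were chosen with earlier results of these data known. Named are the hosts of listed members, of the 10 strongest unlisted ones and of the most members, and listed neighbours of the lists; the other genes named, including those beside the IDR limit, with operon-like spacing or facing each other, were chosen after their values were seen. Alternatives were the conservative and single-replicate lists, other promoter, spacing and hexamer windows, promoters or short RNA genes kept, a repeat share of 0 and a stricter IDR. Leaving out listed members that overlap a stronger listed peak was chosen after seeing the data.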

Additional observations from a re-analysis of the deposited data

How the results depend on the processing

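With the conservative lists, 13 of 525 3' UTR candidates were listed, 2.48%, beside a background of 3.49% in that list. Using 1 replicate's own lists, the listed share ranged from 0.866% to 1.29%, beside backgrounds of 0.915% and 1.58%, the signal ratio from 1.03 to 1.05, the tail-to-tail share stayed at 29.3%, the operon-like share ranged from 7.44% to 8.66%, and the median distance to the gene end from 136 bp to 154 bp. An IDR limit of 0.001 left 2 listed members, 0.506%. The share of all candidates at that limit was not counted, so the 0.506% has no background beside it. Promoters of 1000 bp lowered the operon-like share to 2.27%. Keeping promoter summits raised it to 20.3%, against 23.6% of bases, and gave a tail-to-tail share of 25.6%, against 23.9% of bases. With these summits kept, an overlapping opposite-strand neighbour followed 34.4%, against 19.5% of bases. That share was not followed through the other settings. Spacing limits of 200 bp and 1000 bp gave 2.03% and 12.9%. The nearest transcript end gave 111 bp. The hexamer share was 30.1% within 100 bp and 66.6% with single-base variants. The cause of the moves with the single-replicate lists was not tested; the other settings change the rule, window or limit itself. Keeping members near short RNA genes, keeping a repeat share of 0, a next gene of any biotype and an overlap of 1 bp moved no share, ratio or median by more than its interval. No paired analysis was possible because there is 1 group. Unknown depth and peaks that are not independent limit every share.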

Other observations

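Some pairs of genes that face each other both carried a 3' UTR candidate. There were 11 such pairs with 23 members, of which only the cpg-1 peak was listed. The peaks of M01H9.3 and M01H9.5, with 12 bp between the gene ends, had signals of 55.1 and 55.5, and those of pos-1 and lmd-3, 393 bp apart, had 64.0 and 42.0. In icpp-55 and rnp-8, whose ends overlap, the signals were 14.2 and 69.0.

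Of the genes with more than 1 member, mnk-1 and M01G5.1 had 3 each, with signals of 4.82 to 52.0 and 11.2 to 49.4. The mef-2 gene, a MADS-box factor, had 2 of almost equal signal, 61.1 and 63.2. In all, 95 of the 395 members overlapped another candidate, so the members are fewer than 395 separate sites.

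Unlisted members of the larger set were listed elsewhere in a few cases. Y82E9BR.3, rsp-5 and F26F12.3 were listed in replicate 1, asps-1 and R08D7.5 in replicate 2, and lsm-7 and vab-1 in the conservative list.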
